A study of Mus musculus with 8 samples.

Results

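The genes described here encode the machinery that builds and gates cilia and flagella. They are 34 genes chosen by name from the intraflagellar transport (IFT) complexes, the BBSome with its chaperonin-like assembly factors, and the ciliary transition zone. All 34 were found among the 21058 genes of the deposited tables, all 34 had enough counts to be tested, and all 34 lie on autosomes, spread over 17 chromosomes. By role they comprised 7 genes of the IFT-B core, 5 of peripheral IFT-B, 3 of IFT-A, 6 of the BBSome, 2 chaperonin-like BBS genes, 6 transition zone genes of the tectonic and B9 families, and 5 other transition zone genes, mostly of membrane proteins or their anchors.

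Transcript abundance was measured by RNA-seq in pachytene spermatocytes, the longest stage of meiotic prophase I, from *Arid1a* WT and *Arid1a* cKO mice, with 4 libraries per genotype. ARID1A is a subunit of the BAF chromatin remodeler. Males of the *Arid1a* cKO group had the genotype *Arid1a* fl/fl with 1 copy of the *Stra8-Cre* transgene, which is switched on in spermatogonia, and the *Arid1a* WT males from these crosses were *Arid1a* fl/fl or *Arid1a* fl/+, with no Cre given in their genotype, all adults from floxed stock kept on a CD1 background. Cells were purified by Sta-Put sedimentation at unit gravity from pooled testes. The study describes Cre excision as incomplete, so that some *Arid1a* cKO spermatocytes still expressed ARID1A. The labels call the libraries biological replicates, but nothing says whether they came from separate purifications, so the p-values measure only the spread between these libraries.

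IFT carries tubulin and membrane cargo along the axoneme as trains of IFT-B and IFT-A particles. Kinesin-2 moves the trains to the tip, which requires IFT-B, and dynein-2 returns them, for which IFT-A is needed. IFT-A also serves the entry of membrane proteins. The BBSome rides on these trains as a cargo adaptor, and the transition zone at the ciliary base limits what passes. In the testis the axoneme in question is mainly that of the sperm tail, which is assembled in spermatids after meiosis, and loss of several IFT genes in mice leaves males with short or absent sperm tails.

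Genes of this machinery often carry an X-box near the start of transcription, the DNA element bound by RFX transcription factors. The X-box is an imperfect palindrome, and it was searched on both strands as a left half-site and a right half-site that starts 3 bases after the left one ends. A strict match was GTTNCC followed by GNAAC, and a loose match was GTNNCC followed by GNNAC, so every strict match is also a loose one. Windows from 250 bases before to 50 bases after the gene start (RefSeq sequences, GRCm38.p6) were matched for 30 of the 34 genes. *Ift80*, *Ift81*, *Ift122* and *Tmem67* had none in the table used. A strict X-box was present in 4 of the 30 genes (13.3%), against 1.13% of the 13925 genes tested for expression that had a window. A loose X-box was present in 11 of 30 (36.7%), against 6.33% of those tested. The 4 strict matches are shown first because they are the closest to the RFX consensus. The loose ones of *Bbs1*, *Tctn2* and *Ift57* follow because *Bbs1* fell most among the genes with a loose match only, and *Tctn2* and *Ift57* were the genes with a match that rose. Each is printed on the strand of its gene, with the 2 half-sites and their spacer in capitals.
Mks1: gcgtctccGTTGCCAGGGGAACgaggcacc
B9d2: aacctgctGTTGCCCCAGCAACagtcgggg
Bbs7: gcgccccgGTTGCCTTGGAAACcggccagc
Tctn1: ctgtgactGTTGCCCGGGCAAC
Bbs1: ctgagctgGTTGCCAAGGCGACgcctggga
Tctn2: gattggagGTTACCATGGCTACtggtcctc
Ift57: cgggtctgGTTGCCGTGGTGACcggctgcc
On GRCm38.p6 these fragments lie at chr11:87853183-87853212 (plus strand) for *Mks1*, at chr7:25680788-25680817 (plus strand) for *B9d2*, at chr3:36613489-36613518 (minus strand) for *Bbs7* and at chr5:122264411-122264432 (minus strand) for *Tctn1*, whose window ends with the motif. Those with a loose match lie at chr19:4906605-4906634 (minus strand) for *Bbs1*, at chr5:124598679-124598708 (plus strand) for *Tctn2* and at chr16:49699199-49699228 (plus strand) for *Ift57*. Relative to the gene start that the window was built on, the centre of the motif stood at -17 bases in *Mks1*, 23 in *B9d2*, -114 in *Bbs7*, 43 in *Tctn1*, 8 in *Bbs1*, -55 in *Tctn2* and -80 in *Ift57*. *Ift57* held another loose match on the opposite strand, at -45, and *Ift22* held loose matches at -56 and -26. The other genes with a loose match were *Bbs4*, *Ift22*, *Nphp4* and *Tmem231*. A match describes letters in a window, not binding.

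**Figure D1:**
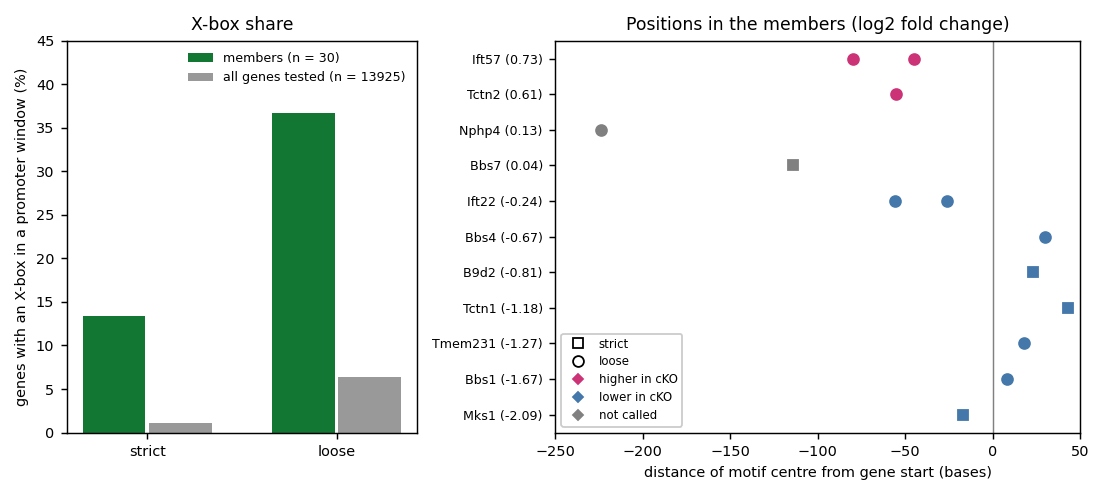
The left panel plots the percentage of genes with a strict or a loose X-box in a promoter window, for the 30 IFT, BBS and transition zone genes with a window (green) and for all 13925 genes tested for expression with a window (grey). The right panel plots the distance of each motif from the gene start in bases, with 1 row per gene. The log2 fold change is in brackets, squares are strict and circles loose matches, and colour gives the direction called. Of the 11 genes, 7 were lower in *Arid1a* cKO (37.5% of all genes tested were), 2 were higher (36.5%) and 2 were not called.

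The targeted gene was compared first. *Arid1a* had 105, 129, 121 and 98.8 CPM (estimated counts scaled to a common library size by TMM, edgeR's correction for library composition) in *Arid1a* WT libraries 1 to 4 and 76.4, 81.0, 82.9 and 78.3 CPM in *Arid1a* cKO libraries 1 to 4. Every *Arid1a* cKO library lay below every *Arid1a* WT library, a log2 fold change of -0.51 (standard error, SE, 0.07). Counts were summed over floxed and excised alleles alike. Libraries held 15850961 to 22044507 estimated counts. Changes between the genotypes were widespread, with 36.5% of the 17643 genes tested called higher and 37.5% called lower in *Arid1a* cKO at an adjusted p of 0.05 or less (quasi-likelihood test of edgeR, adjusted by Benjamini-Hochberg over all genes tested), 74.0% in either direction, and a median log2 fold change of -0.02.

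Most of the ciliary genes were lower in *Arid1a* cKO, with exceptions in every role group. Of the 34, 21 (61.8%, against 37.5% of all genes tested) were called lower, 10 (29.4%, against 36.5%) were called higher, and *Bbs7*, *Cc2d2a* and *Nphp4* were not called. The largest fall was that of the transition zone gene *Mks1*, 4.27-fold, and the largest rise that of the BBSome gene *Bbs5*, 3.08-fold. The median log2 fold change over the 34 genes was -0.40, and the values ran from -2.09 to 1.62. The size of change was ordinary for these libraries, with a median absolute log2 fold change of 0.70 against 0.76 over all genes tested. A fall of at least 2-fold was called for 10 of the 34 genes (against 16.0% of all genes tested), and a rise of at least 2-fold for 2 of them, *Bbs5* and *Bbs12* (against 20.6%). Abundant genes as a class leaned the same way. Among the 7785 genes whose log2 CPM averaged 4 or more, 48.0% were lower and 39.8% higher, and among the 31 ciliary genes at that level 20 (64.5%) were lower and 9 (29.0%) higher.

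The values of the 4 libraries of each genotype did not overlap for 29 of the 34 genes (68.9% of all genes tested did not). *Arid1a* cKO lay wholly below *Arid1a* WT for 20 genes and wholly above for 9. The libraries overlapped for *Ift88*, *B9d1*, *Bbs7*, *Cc2d2a* and *Nphp4*. Summed over the 34 genes, the level was 4523 to 5287 CPM in the *Arid1a* WT libraries and 3801 to 4056 CPM in the *Arid1a* cKO libraries. *Arid1a* WT replicate 3 was the lowest *Arid1a* WT library for 19 of the 34 genes, and *Arid1a* WT replicate 4 the highest for 15. Among the *Arid1a* cKO libraries, replicate 1 was the highest for 21 of the 34 genes and replicate 4 the lowest for 16.

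**Figure D2:**
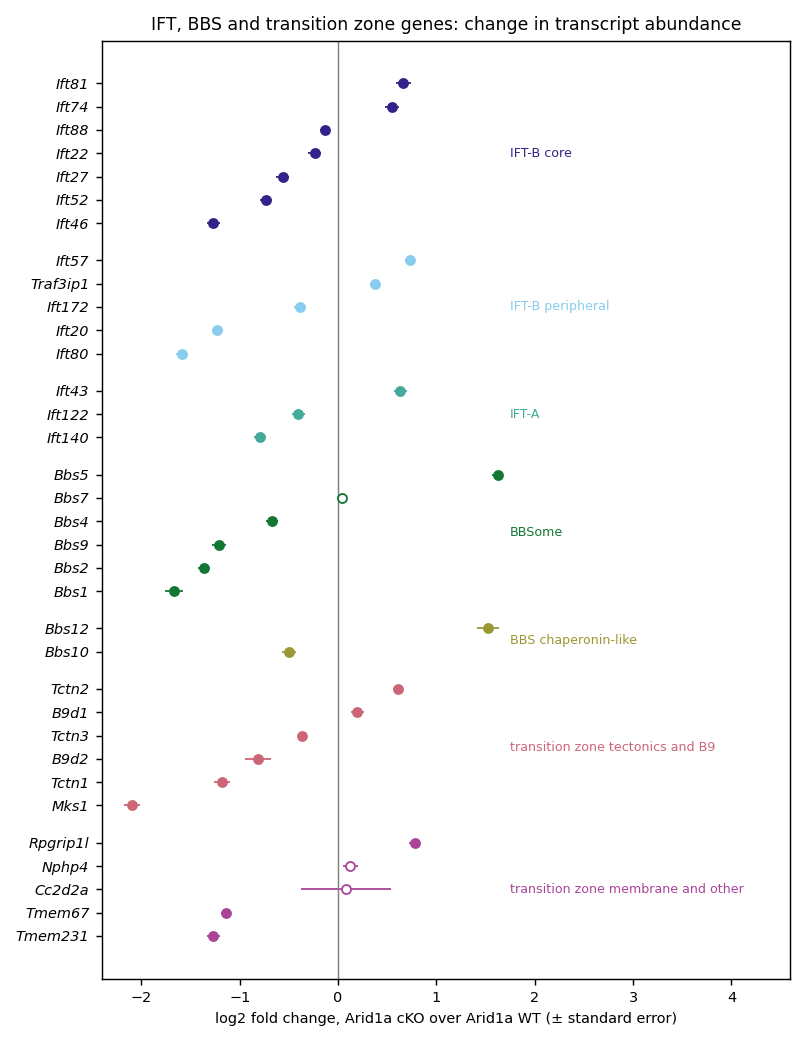
Log2 fold change of each gene, *Arid1a* cKO over *Arid1a* WT, with its standard error, grouped and coloured by role (x axis in log2 units, 1 row per gene, filled points for called genes and open points for *Bbs7*, *Cc2d2a* and *Nphp4*, which were not called). Every role group holds at least 1 gene on each side of 0, and the values run from -2.09 for *Mks1* to 1.62 for *Bbs5*.

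The Sta-Put fractions are enriched, not pure, and fewer cells of a type cannot be told apart from less RNA per cell in these bulk libraries. Markers of other cell types moved with genotype, but so did most genes. Of all genes tested 74.0% were called, 36.5% higher and 37.5% lower. The share called in either direction was near that for the pachytene (80.0%), peritubular (75.0%) and multiciliated (75.0%) markers. All 14 spermatid markers were called higher in *Arid1a* cKO, with summed levels of 2212 to 2434 CPM in *Arid1a* WT and 9642 to 9849 CPM in *Arid1a* cKO. All 7 Sertoli cell markers were lower (440.3 to 501 CPM against 126 to 130.1 CPM), and so were all 5 Leydig cell markers (54.1 to 57.0 CPM against 6.51 to 6.84 CPM). Of the markers of spermatogonia 7 of 8 were higher (92.5 to 93.5 CPM against 148 to 156 CPM), and so were 5 of 6 of macrophages (4.12 to 4.87 CPM against 11.3 to 13.5 CPM) and 3 of 4 of peritubular cells (11.6 to 14.9 CPM against 17.7 to 20.5 CPM). Of the 10 pachytene markers, 3 were higher, 5 lower and 2 not called, and their summed level was 10358 to 11956 CPM in *Arid1a* WT and 8945 to 9374 CPM in *Arid1a* cKO, a fall that was mostly that of *Piwil1* (mean of 1597 against 109 CPM). Of the 7 leptotene and zygotene markers, 4 were higher and 3 lower, with a median log2 fold change of 0.75. Their summed level was nonetheless lower, at 412 to 464 CPM against 323 to 341 CPM, since *Hormad1* (mean of 231 against 101 CPM) and *Spo11* (134 against 21.0 CPM) fell by more in sum than *Rec8* (23.8 against 134 CPM), *Stra8*, *Prdm9* and *Dmc1* rose. Of 4 markers of the multiciliated cells that line the ducts next to the testis, *Foxj1* and *Ccno* were higher, *Mcidas* was lower and *Gmnc* was not called, with a summed level of 39.0 to 44.6 CPM in *Arid1a* WT and 279 to 315 CPM in *Arid1a* cKO, most of it from *Foxj1* (35.5 to 40.8 CPM and 273 to 309 CPM). No marker was at 0 in any library, but some were near it. The lowest count in a library was 2 for a Sertoli cell marker, 3 for a multiciliated cell marker, 4 for a macrophage marker and 10 for a Leydig cell marker. The part of these marker shifts in the values below was not tested.

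IFT-B, the complex of outward transport, had 12 of its genes among the 34. Of these 8 were lower (37.5% of all genes tested were) and 4 higher (36.5%). In the core, 5 of 7 genes were lower and 2 higher, with a median log2 fold change of -0.24. The 2 that rose encode partners. *Ift81* and *Ift74* form a long coiled-coil pair that binds tubulin and the rest of the core. *Ift81* had 152, 129, 123 and 159 CPM in *Arid1a* WT libraries 1 to 4 and 234, 221, 226 and 210.2 CPM in *Arid1a* cKO libraries 1 to 4. All *Arid1a* cKO libraries were above all *Arid1a* WT libraries, and the log2 fold change was 0.66 (SE 0.07, edgeR adjusted p = 1.49e-06). *Ift74* had 282, 250.2, 224 and 292 CPM against 407, 376, 382 and 368 CPM, again without overlap. Its log2 fold change was 0.55 (SE 0.07).

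*Ift46*, a core subunit that helps to hold the complex together, fell most in the core. It had 198, 186, 164 and 211 CPM in *Arid1a* WT libraries 1 to 4 and 82.4, 76.8, 77.0 and 79.5 CPM in *Arid1a* cKO libraries 1 to 4. The lowest *Arid1a* WT library was still well above the highest *Arid1a* cKO library, and *Ift46* was 2.41-fold lower (log2 fold change -1.27, SE 0.07, edgeR adjusted p = 4.36e-10). *Ift52*, the scaffold onto which other core subunits assemble, fell from 78.6 ± 6.91 CPM (SD, n = 4) to 47.3 ± 1.72 CPM (log2 fold change -0.73). *Ift27*, a small GTPase that links the trains to the BBSome, fell from 31.8 ± 2.33 to 21.5 ± 1.04 CPM (log2 fold change -0.56).

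The calls of *Ift88* and *Ift22* depended on the processing. *Ift88*, a scaffold subunit whose mutation is a standard model of ciliary loss, had 107 to 124 CPM in *Arid1a* WT and 105 to 108 CPM in *Arid1a* cKO, and these ranges overlapped. It was called lower at a log2 fold change of -0.13 (edgeR adjusted p = 0.0337), but the call was lost with DESeq2 (adjusted p = 0.133), with DESeq2's size factors in edgeR (0.121), with edgeR's stricter filter on low counts (0.0557) and when any 1 of 6 libraries was left out (adjusted p of 0.0537 to 0.115, for each *Arid1a* cKO library and for *Arid1a* WT replicates 1 and 4). *Ift22*, another small GTPase of the core, had 111 to 140.3 CPM against 100.1 to 108 CPM, with every *Arid1a* cKO library below the *Arid1a* WT range. It was called lower in estimated counts (log2 fold change -0.24, edgeR adjusted p = 0.00572), but with offsets for transcript length its value was 0.13 (adjusted p = 0.0878 from edgeR) and on log2(TPM + 1) it was 0.04 (adjusted p = 0.513 from limma). TPM is the authors' estimate of relative transcript number, scaled for depth and for the length of the transcripts that a gene uses.

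Peripheral IFT-B docks onto the core and carries motor and membrane contacts. Of its 5 genes, 3 were lower (37.5% of all genes tested were) and 2 higher (36.5%), with a median log2 fold change of -0.39. *Ift80*, a WD-repeat subunit, had 263, 240.4, 223 and 248 CPM in *Arid1a* WT libraries 1 to 4 and 83.2, 79.6, 81.6 and 79.9 CPM in *Arid1a* cKO libraries 1 to 4. The 4 *Arid1a* cKO libraries lay close together, far under the lowest *Arid1a* WT library, and *Ift80* was 3.01-fold lower (log2 fold change -1.59, SE 0.06, edgeR adjusted p = 2.69e-12). *Ift20*, which also works at the Golgi to send membrane proteins to the cilium, had 61.7, 60.7, 53.4 and 58.7 CPM against 25.9, 25.5, 24.1 and 24.8 CPM. It was 2.34-fold lower (log2 fold change -1.23). *Ift172*, the largest IFT-B subunit, had 560.3 to 675 CPM against 453 to 497 CPM and was called lower (log2 fold change -0.39), a call that was lost with offsets for transcript length (-0.07, adjusted p = 0.220 from edgeR).

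In the other direction, *Ift57*, which binds *Ift20*, had 81.7, 77.0, 72.4 and 80.7 CPM in *Arid1a* WT libraries 1 to 4 and 137, 129, 127 and 124 CPM in *Arid1a* cKO libraries 1 to 4. No library of one genotype reached into the range of the other, and the log2 fold change was 0.73 (SE 0.05, edgeR adjusted p = 1.02e-08). *Traf3ip1*, which encodes the microtubule-binding IFT-B protein IFT54 and is a partner of *Ift20* in the complex, rose from 78.0 ± 3.05 to 101 ± 2.42 CPM (log2 fold change 0.38). Thus *Ift20* was lower while the genes of both of its partners named here were higher.

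IFT-A had 1 gene higher (36.5% of all genes tested were) and 2 lower (37.5%) of the 3 described. *Ift140* and *Ift122* encode large WD-repeat subunits of its core, and *Ift43* a small peripheral subunit. *Ift140* had 1341, 1267, 1160 and 1443 CPM in *Arid1a* WT libraries 1 to 4 and 766, 768, 740 and 729 CPM in *Arid1a* cKO libraries 1 to 4. All 4 *Arid1a* cKO libraries were lower, and the log2 fold change was -0.80 (SE 0.06, edgeR adjusted p = 3.69e-08). *Ift122* fell from 399 ± 38.3 to 302 ± 7.85 CPM (log2 fold change -0.40). *Ift43* had 98.9, 89.0, 83.7 and 104 CPM in *Arid1a* WT and 148, 146, 142 and 147 CPM in *Arid1a* cKO. Its *Arid1a* cKO libraries were all higher, with a log2 fold change of 0.63 (SE 0.06, edgeR adjusted p = 3.88e-07).

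The BBSome genes spread over the widest range of log2 fold change of the 7 role groups, from -1.67 to 1.62 (median -0.94). Of the 6 subunits described, 4 were lower (37.5% of all genes tested were), 1 higher (36.5%) and 1 not called. *Bbs5*, whose protein binds phosphoinositides of the membrane, rose. It had 33.8, 32.97, 33.2 and 32.1 CPM in *Arid1a* WT libraries 1 to 4 and 112, 97.7, 100.3 and 97.2 CPM in *Arid1a* cKO libraries 1 to 4. The replicates were tight in *Arid1a* WT, every *Arid1a* cKO library was higher, and the log2 fold change was 1.62 (SE 0.06, edgeR adjusted p = 2.46e-12).

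*Bbs1*, whose protein contacts the GTPase ARL6 that recruits the BBSome to membranes, fell most. It had 63.4, 71.5, 70.9 and 52.1 CPM in *Arid1a* WT libraries 1 to 4 and 19.6, 19.9, 20.9 and 20.6 CPM in *Arid1a* cKO libraries 1 to 4. *Arid1a* WT replicate 4 was the lowest of its group and still above every *Arid1a* cKO library, and *Bbs1* was 3.18-fold lower (log2 fold change -1.67, SE 0.09, edgeR adjusted p = 4.3e-10). *Bbs2*, *Bbs7* and *Bbs9* form the BBSome's early core. *Bbs2* fell from 64.1 ± 5.03 to 25.0 ± 0.768 CPM (log2 fold change -1.36) and *Bbs9* from 94.6 ± 9.29 to 41.0 ± 2.79 CPM (log2 fold change -1.21). *Bbs7*, which carries a strict X-box, had 124 to 137 CPM in *Arid1a* WT and 135 to 139.7 CPM in *Arid1a* cKO, with a log2 fold change of 0.04 (SE 0.05, edgeR adjusted p = 0.457). Its direction was not stable, at -0.06 without TMM scaling, -0.01 with offsets for transcript length, and -0.10 on log2(TPM + 1), where limma called it lower (adjusted p = 0.0369). *Bbs4*, a subunit made of TPR repeats whose loss in mice leaves sperm without tails, fell from 39.7 ± 2.15 to 24.8 ± 1.62 CPM (log2 fold change -0.67).

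The chaperonin-like proteins BBS10 and BBS12 help to fold the BBS2, BBS7 and BBS9 core, and their genes moved apart. *Bbs12* was low in *Arid1a* WT, with 3.12, 2.70, 3.16 and 3.05 CPM, and higher in every *Arid1a* cKO library, with 10.1, 8.05, 8.04 and 8.42 CPM. The log2 fold change was 1.52 (SE 0.11, edgeR adjusted p = 1.55e-08). *Bbs10* had 30.5, 29.2, 28.7 and 33.6 CPM in *Arid1a* WT and 23.3, 22.04, 20.2 and 20.9 CPM in *Arid1a* cKO. It was lower in every *Arid1a* cKO library, with a log2 fold change of -0.50 (SE 0.07, edgeR adjusted p = 1.25e-05).

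**Figure D3:**
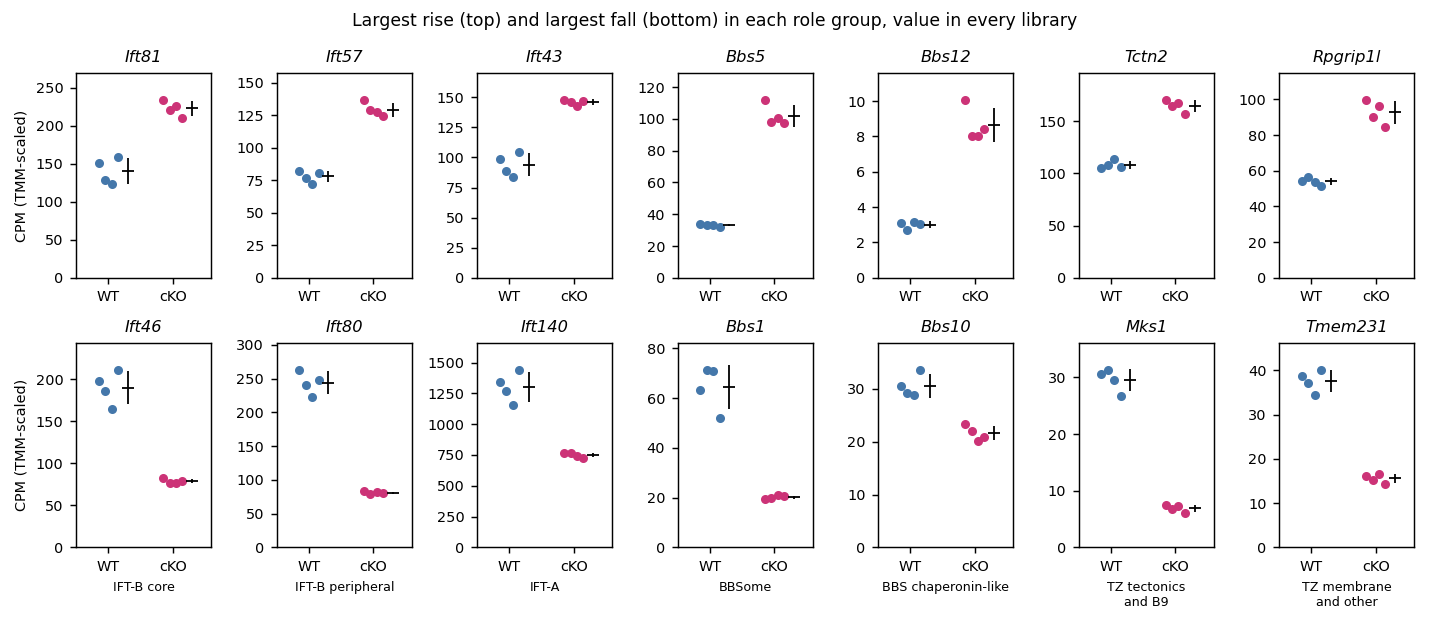
CPM of the gene with the largest rise (top row) and the largest fall (bottom row) in each role group, 1 point per library in blue for *Arid1a* WT and in magenta for *Arid1a* cKO, with the mean and SD of the 4 libraries beside them and every y axis starting at 0. The points of the genotypes do not overlap in any of the 14 panels, as for *Bbs5*, with 32.1 to 33.8 CPM in *Arid1a* WT and 97.2 to 112 CPM in *Arid1a* cKO.

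The transition zone is a fence at the ciliary base made of an MKS module, to which the tectonics and B9 proteins belong, and an NPHP module. Of its 11 genes, 6 were lower (37.5% of all genes tested were), 3 higher (36.5%) and 2 not called, with a median log2 fold change of -0.36. *Mks1*, which encodes a B9-domain protein, fell most of the 34 genes. It had 30.5, 31.4, 29.5 and 26.8 CPM in *Arid1a* WT libraries 1 to 4 and 7.54, 6.74, 7.23 and 6.04 CPM in *Arid1a* cKO libraries 1 to 4. Every *Arid1a* cKO library was far below, with a log2 fold change of -2.09 (SE 0.08, edgeR adjusted p = 1.04e-11). *B9d1* and *B9d2* encode the other B9-domain proteins, which bind MKS1. *B9d2* was low and had 5.15 to 6.02 CPM against 2.82 to 3.997 CPM (log2 fold change -0.81, SE 0.13, edgeR adjusted p = 6.14e-05). *B9d1* had 69.7 to 86.5 CPM against 81.9 to 90.5 CPM, which overlapped. It was called higher at a log2 fold change of 0.19 (adjusted p = 0.0145 from edgeR), and the call was lost without TMM scaling (0.10), with offsets for transcript length (0.11) and on log2(TPM + 1) (0.01).

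The tectonics are related proteins of the MKS module. *Tctn1* had 91.0, 105, 103 and 78.0 CPM in *Arid1a* WT libraries 1 to 4 and 39.3, 42.2, 42.4 and 42.5 CPM in *Arid1a* cKO libraries 1 to 4. It was lower in each of the latter, with a log2 fold change of -1.18 (SE 0.08, edgeR adjusted p = 7.84e-09). In the annotation, 25.5% of its exonic bases overlap exons of genes on the opposite strand, *Hvcn1* among them, and without a stated strand setting reads of such genes cannot be told apart. *Tctn2* had 105, 108, 114 and 106 CPM against 170.5, 165, 167 and 157 CPM, higher in every *Arid1a* cKO library (log2 fold change 0.61, SE 0.05, edgeR adjusted p = 2.45e-08). *Tctn3* was modestly lower, from 42.4 ± 1.66 to 32.9 ± 0.764 CPM (log2 fold change -0.36).

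*Tmem67* and *Tmem231* encode membrane proteins of the MKS module, the former (meckelin) built like a receptor. *Tmem231* had 38.7, 37.2, 34.4 and 40.2 CPM in *Arid1a* WT and 16.1, 15.1, 16.7 and 14.4 CPM in *Arid1a* cKO. It was lower in every *Arid1a* cKO library, with a log2 fold change of -1.27 (SE 0.07, edgeR adjusted p = 4.11e-10). *Tmem67* fell alongside, from 184 ± 8.23 to 83.8 ± 2.82 CPM (log2 fold change -1.14). *Rpgrip1l*, a scaffold that anchors both modules at the transition zone, had 54.3, 56.3, 53.9 and 51.7 CPM in *Arid1a* WT and 99.7, 90.4, 96.2 and 84.6 CPM in *Arid1a* cKO. It was higher in every *Arid1a* cKO library (log2 fold change 0.78, SE 0.06, edgeR adjusted p = 1.27e-08). *Nphp4*, its partner in the NPHP module, had 26.8 to 33.1 CPM against 30.3 to 36.3 CPM and a log2 fold change of 0.13 (SE 0.08, edgeR adjusted p = 0.150). Without *Arid1a* WT replicate 2 it was called higher (0.18, adjusted p = 0.0462), and on log2(TPM + 1) its value was -0.07. *Cc2d2a*, which encodes a C2-domain protein of the MKS module, was barely detected, at 0.454 ± 0.231 CPM and 0.472 ± 0.219 CPM (SD, n = 4), and a difference was not detectable at this depth (log2 fold change 0.08, SE 0.46).

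Partners and paralogs were then compared within each library, for genes whose products work together. For 12 pairs the log2 ratio of TPM (plus 0.5) of one gene to the other was taken in each library, and its mean was compared between genotypes with a two-sided exact permutation test over all 70 ways to divide the 8 libraries evenly. The smallest p that this test allows is 0.0286, which is 0.0343 after Benjamini-Hochberg adjustment over the 12 pairs. The ratio differed at that limit for 10 pairs, which is also where the genotypes do not overlap. Of all pairs of genes tested 67.9% had ratios that do not overlap, and of pairs in which both genes averaged 4 or more on the log2 CPM scale it was 83.0%, so a count of 10 of 12 is near the background and is no result about these pairs. Their ratios are given as a description.

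The ratios that differed most were those of *Bbs10* with *Bbs12*, *Tctn1* with *Tctn2*, and *Ift20* with *Traf3ip1*. *Bbs10* was 7.27 times as abundant as *Bbs12* in *Arid1a* WT and 2.09 times in *Arid1a* cKO, a difference in log2 ratio of -1.80 (SE 0.07). The log2 ratio of *Ift20* to *Traf3ip1* was 1.63, 1.47, 1.37 and 1.51 in *Arid1a* WT libraries 1 to 4 and -0.07, -0.03, -0.11 and -0.10 in *Arid1a* cKO libraries 1 to 4. *Ift20* thus went from 2.82 times the level of *Traf3ip1* to 0.947 times (difference -1.57, SE 0.06). The ratio of *Tctn1* to *Tctn2* fell from 0.567 to 0.191 (difference -1.57, SE 0.12), and that of *Tctn2* to *Tctn3* rose from 2.68 to 5.32 (difference 0.99, SE 0.04).

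Within the BBSome's early core the ratio of *Bbs2* to *Bbs7* fell from 0.745 to 0.304 (difference -1.30, SE 0.09). In the transition zone *Rpgrip1l* went from 1.49 to 3.01 times the level of *Nphp4* (difference 1.02, SE 0.16) and *B9d1* from 17.2 to 32.4 times that of *B9d2* (difference 0.91, SE 0.13). Smaller shifts were those of *Ift52* to *Ift88* (difference -0.50, SE 0.06), *Ift122* to *Ift140* (0.37, SE 0.03) and *Ift74* to *Ift81* (-0.36, SE 0.12). Without any 1 of the 4 *Arid1a* WT libraries the last lay between -0.38 and -0.32 and the genotypes still did not overlap, but its adjusted p was 0.0623 to 0.0686 in the exact permutation test. With CPM in place of TPM the difference was -0.11 for *Ift74* to *Ift81* and 0.65 for *Rpgrip1l* to *Nphp4* (adjusted p = 0.0312 for both, exact permutation test), so the size of these shifts depended on the unit.

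A difference was not shown for the other pairs. The log2 ratio of *Bbs1* to *Bbs4* was 0.01, 0.23, 0.42 and -0.41 in *Arid1a* WT libraries 1 to 4 and -1.15, -0.50, -0.55 and -0.26 in *Arid1a* cKO libraries 1 to 4. The highest *Arid1a* cKO library exceeded the lowest *Arid1a* WT library, and the difference of -0.67 (SE 0.26) had an adjusted p of 0.0623 in the exact permutation test. It was -0.83 without *Arid1a* WT replicate 4 (adjusted p = 0.0343, exact permutation test) and -0.98 with CPM in place of TPM (adjusted p = 0.0312, exact permutation test). *Tmem67* stood at 3.97 times the level of *Tmem231* in *Arid1a* WT and at 3.85 times in *Arid1a* cKO, a difference of -0.04 (SE 0.05, exact permutation p = 0.543).

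**Figure D4:**
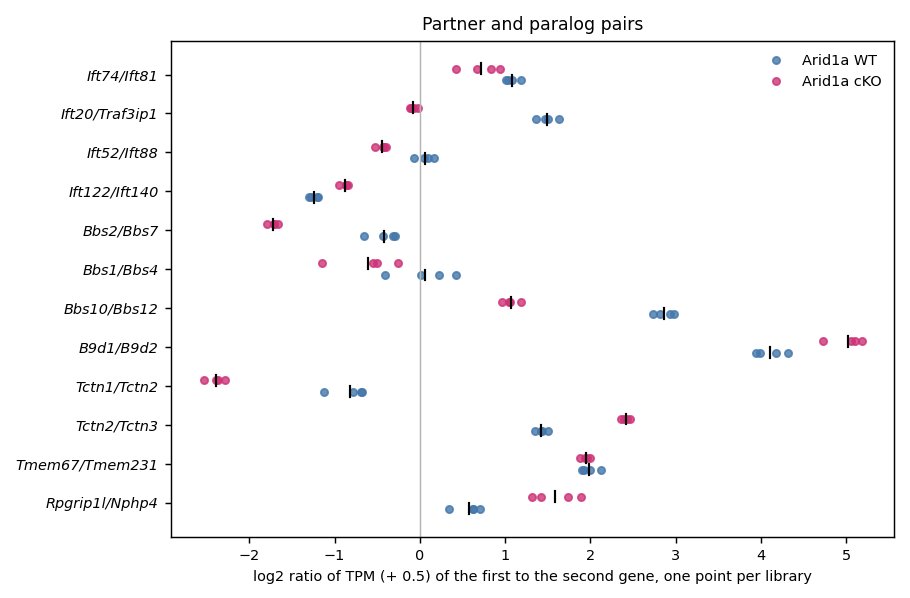
Log2 ratio of TPM (plus 0.5) of the first gene to the second for 12 partner or paralog pairs, 1 point per library in blue for *Arid1a* WT and in magenta for *Arid1a* cKO, with a black tick at the mean of each genotype. The genotypes do not overlap for 10 pairs, and they do for *Bbs1*/*Bbs4* and *Tmem67*/*Tmem231*.

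Levels between genes were compared per transcript length, as TPM. In *Arid1a* WT the order began with *Ift46* (377 ± 34.6 TPM, SD, n = 4) and *Ift140* (363 ± 18.1 TPM), which overlapped each other and stood above all others. *Ift22* (232 TPM), *Ift172* (224 TPM) and *Ift43* (220 ± 13.3 TPM) followed with overlapping libraries, then *Ift74* (191 TPM) and *B9d1* (185 TPM), which overlapped too. The libraries of *Ift43* and *Ift74* also overlapped. *Ift122* (153 TPM), *Ift20* (126 TPM), *Ift80* (105 TPM) and *Ift81* (90.1 TPM) came next, each with all of its libraries above those of the gene after it. From *Tmem67* (77.8 TPM) down to *Mks1* (22.7 TPM) each gene overlapped the next. The order ended with *Tmem231* (19.2 TPM), *Bbs10* (17.0 TPM), *Rpgrip1l* (15.6 TPM), *Nphp4* (10.4 TPM), *B9d2* (10.3 TPM), *Bbs12* (1.90 TPM) and *Cc2d2a* (0.148 TPM), with overlap between *Bbs10* and *Rpgrip1l* and between *Nphp4* and *B9d2*.

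In *Arid1a* cKO the order was led by *Ift43* (311 ± 4.27 TPM, SD, n = 4), *Ift74* (253 ± 8.93 TPM) and *Ift22* (238 ± 8.32 TPM), while *Ift46* was at rank 8 (146 ± 7.51 TPM) and *Ift140* at rank 5 (195 ± 1.81 TPM). *Bbs5* moved from rank 20 (50.9 ± 6.07 TPM) to rank 9 (125 ± 4.11 TPM). *Mks1* moved from rank 27 to rank 33, at 4.59 ± 0.970 TPM. The 6 BBSome subunits among the 34 genes were within 3.20-fold of each other in *Arid1a* WT, from *Bbs4* to *Bbs7*, and spread over 14.2-fold in *Arid1a* cKO, from *Bbs1* (8.81 ± 1.78 TPM) to *Bbs5*. With the other BBSome subunits, *Ttc8* and *Bbip1*, the 8 spread over 8.78-fold in *Arid1a* WT and 40.3-fold in *Arid1a* cKO, with *Ttc8* the lowest (4.28 TPM in *Arid1a* cKO) and *Bbip1* the highest (193 TPM in *Arid1a* WT and 173 TPM in *Arid1a* cKO) in both genotypes. The IFT-B core spread over 6.57-fold in *Arid1a* WT and 6.98-fold in *Arid1a* cKO, and the 6 tectonic and B9 genes over 17.9-fold and 40.5-fold. The listed genes summed to 780735 to 811443 TPM in the *Arid1a* WT libraries and 880901 to 886412 TPM in the *Arid1a* cKO libraries, which moves every TPM value of a library alike and leaves ratios within it as they are.

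**Figure D5:**
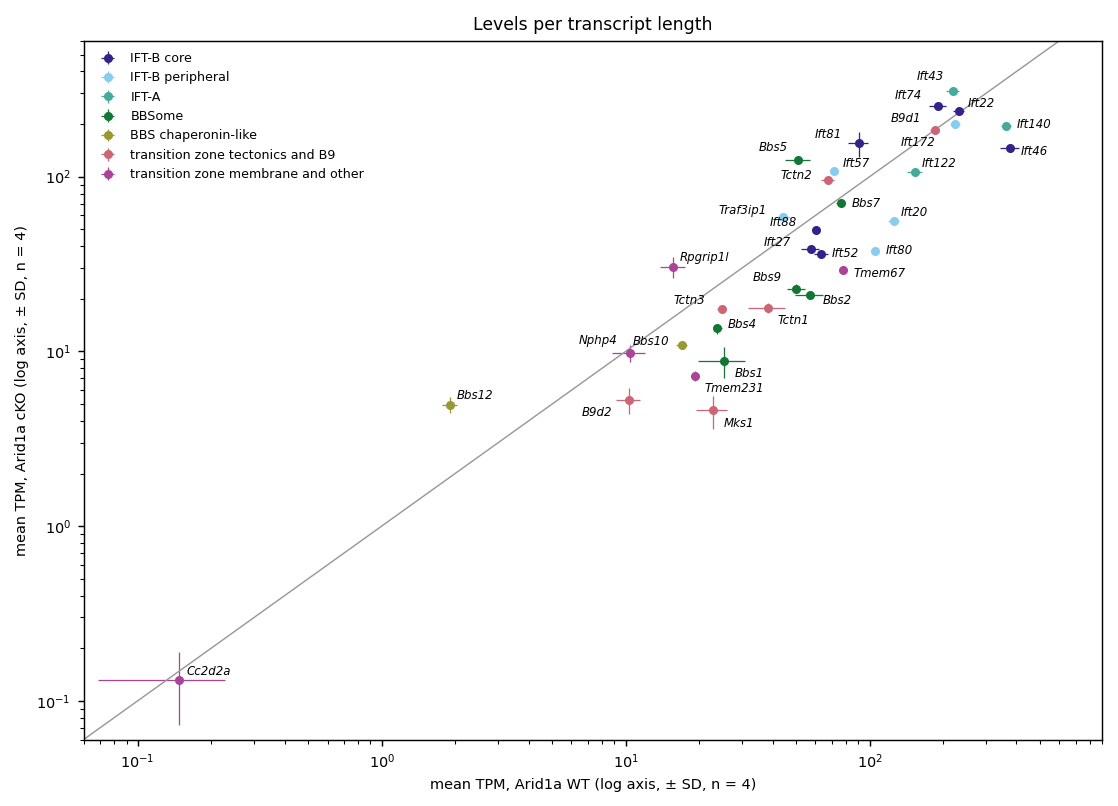
Mean TPM of each of the 34 genes in *Arid1a* WT (x axis, log scale) against *Arid1a* cKO (y axis, log scale), with SD bars over 4 libraries per genotype, coloured by role, and a line of equality. *Ift46* lies below the line at 377 against 146 TPM and *Bbs5* above it at 50.9 against 125 TPM.

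Counts and TPM together give the average length of the transcripts that Salmon assigned to each gene, and this length changed for some of the 34. It was taken relative to genes with 1 annotated transcript. Among the 32 genes with at least 50 counts in every library, 8 had a length at least 1.1-fold shorter in *Arid1a* cKO with no overlap between genotypes (13.0% of all genes at that depth did so). These were *Ift22* (ratio of *Arid1a* cKO to *Arid1a* WT 0.754), *Ift172* (0.780), *Rpgrip1l* (0.798), *Ift80* (0.845), *Tctn1* (0.861), *Bbs9* (0.862), *Ift20* (0.879) and *Traf3ip1* (0.889). *Bbs5* alone was longer by that measure, at 1.13 (2.45% of all genes were). These values rest on assignment of 50 bp reads to annotated transcripts. Of these 9 genes, the call in counts was lost with length offsets for *Ift22* and *Ift172* and kept for *Ift80*, *Ift20*, *Traf3ip1*, *Bbs5*, *Bbs9*, *Tctn1* and *Rpgrip1l*.

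The genes with an X-box did not share 1 direction. Of the 4 with a strict match, *Mks1*, *B9d2* and *Tctn1* were lower and *Bbs7* was not called. Of the 11 with a loose match, 7 were lower, 2 higher (*Ift57* and *Tctn2*) and 2 not called, with a median log2 fold change of -0.67. Of the 19 with a window and no loose match, 11 were lower, 7 higher and 1 not called, with a median of -0.36. For comparison, 61.8% of the 34 genes and 37.5% of all genes tested were lower, and 29.4% and 36.5% were higher. Whether genes with and without a match differed was not tested.

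The RFX factors that bind the X-box, and FOXJ1, the forkhead factor of motile cilia, were themselves measured. Of 8 transcription factors of ciliogenesis 3 were higher (36.5% of all genes tested were), 2 lower (37.5%) and 3 not called. *Foxj1* had 35.5, 40.8, 39.6 and 40.6 CPM in *Arid1a* WT libraries 1 to 4 and 273, 304, 298 and 309 CPM in *Arid1a* cKO libraries 1 to 4, a log2 fold change of 2.92 (SE 0.06, edgeR adjusted p = 4.97e-14). *Rfx1* rose from 36.6 ± 3.19 to 202 ± 9.63 CPM (log2 fold change 2.47). *Rfx2* and *Rfx3* were looked up after the values were seen. *Rfx2*, the RFX factor known to be needed in spermatids, had 485 ± 19.2 CPM in *Arid1a* WT and 465 ± 13.1 CPM in *Arid1a* cKO (log2 fold change -0.06, adjusted p = 0.282 from edgeR). *Rfx3* rose from 17.7 ± 2.68 to 60.3 ± 1.21 CPM (log2 fold change 1.77).

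Other genes of the same pathways, 53 in all with those 8 factors, split more evenly. Of these 18 were higher (against 36.5% of all genes tested), 22 lower (against 37.5%) and 13 not called, with a median log2 fold change of -0.07. Among 10 other IFT and cargo adaptor genes 1 was higher, 6 lower and 3 not called. Among 9 motor subunits 4 were higher, 3 lower and 2 not called. Among 5 other BBS genes 2 were higher and 3 lower, among 16 other transition zone and inversin compartment genes 7 were higher, 6 lower and 3 not called, and among 5 ciliary GTPases 1 was higher, 2 lower and 2 not called.

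Among the other pathway genes that averaged 1 or more on the log2 CPM scale, the largest falls were those of *Ttc8*, which encodes the BBSome subunit BBS8, from 29.6 ± 0.932 to 4.37 ± 0.649 CPM (log2 fold change -2.75), of *Ttc30a1*, from 67.9 ± 4.52 to 10.8 ± 0.759 CPM (-2.65), and of *Wdr34*, a dynein-2 intermediate chain, from 81.9 ± 7.32 to 27.5 ± 1.35 CPM (-1.57). *Ttc30a1* has near-identical neighbours, *Ttc30a2* (log2 fold change -0.15) and *Ttc30b* (0.08), neither of which was called, so the assignment of reads among them is uncertain. The largest rises were those of *Foxj1*, *Rpgr* and *Rfx1*. *Rpgr*, an X-linked gene of a transition zone protein that binds RPGRIP1 proteins, rose from 20.2 ± 1.05 to 120.0 ± 5.16 CPM (log2 fold change 2.57, adjusted p = 5.4e-14 from edgeR).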

How the data were processed

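Pachytene spermatocyte mRNA of 4 *Arid1a* WT and 4 *Arid1a* cKO libraries was read as 50 bp pairs. Per the methods, the authors ran Salmon on transcripts and summed them to Entrez genes with tximport on the mm10 UCSC known-gene annotation. They deposited estimated counts, scaled for neither library size nor transcript length, together with TPM, scaled by Salmon for both in the files the authors deposited. The strand setting was not given in the sources used here. A deposited table of the authors' own comparison (fold changes and p-values) was not used. Groups came from the genotype labels, and 0 columns of sample values were left out.

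Estimated counts were rounded. Genes reaching 10 counts in the sum of the 8 libraries entered edgeR 4.0.16 in R 4.3.3 (TMM, glmQLFit, glmQLFTest, with genotype alone in the model). The threshold for a call was 0.05 after Benjamini-Hochberg adjustment. Ratios of pairs were tested by two-sided exact permutation. Symbols, coordinates and promoter windows were those of RefSeq (GRCm38.p6, the patch release of mm10), matched for 21036 of 21058 genes. Exon overlaps were computed from GENCODE M21. Counts were simulated for the genes tested, 200 of them changed 2-fold, and 17545 genes then passed the count filter. The edgeR step found 77% of the 200, and 2.53% of its calls were false. In the data 74.0% of genes were called, far more than were changed in the simulation, so these rates need not hold here.

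In each role group the genes with the largest rise and fall are given in every library, and of the other pathway genes the 3 largest of each direction that were called, averaged a log2 CPM of 1 or more and had no overlap between genotypes. The genes, lists, markers and tests were chosen with earlier results of these data known. The alternatives were DESeq2 1.42.0, its size factors in edgeR, library size without TMM, filterByExpr, a minimum of 1 count, offsets for transcript length taken from counts and TPM, the replicate number as a block, limma 3.58.1 on log2(TPM + 1) and log2(TPM + 0.1), and each library left out in turn, and for pairs CPM in place of TPM and a pseudocount of 0.1. Tables and plots used pandas 2.3.3 and matplotlib 3.10.9 under Python 3.11.15.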

Additional observations from a re-analysis of the deposited data

Results flagged for a closer look

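Among 70 groups of 4 libraries (34 genes and *Arid1a* in each genotype), 4 had 1 library standing apart by Dixon's criterion, where chance gives 3.5. The values below are the gap to the nearest library as a share of the group's range. *Bbs7* in *Arid1a* WT replicate 3 was low (123.6 CPM, others 135 to 137 CPM, share 0.866). *Bbs7* in *Arid1a* cKO replicate 1 was high (139.7 CPM, others 135 to 136 CPM, share 0.837). *Tctn1* in *Arid1a* cKO replicate 1 was low (39.3 CPM, others 42.2 to 42.5 CPM, share 0.893). *B9d2* in *Arid1a* cKO replicate 2 was high (3.997 CPM, others 2.82 to 3.02 CPM, share 0.832). The calls for *Tctn1* and *B9d2* held when each library was left out in turn.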

How the results depend on the processing

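Of the 34 genes, 27 kept direction and call under all 17 alternatives tried. The exceptions were *Ift22*, *Ift88*, *Ift172*, *Bbs7*, *B9d1*, *Cc2d2a* and *Nphp4*. Their cause was not tested. Members called higher numbered 9 to 11 and lower 19 to 21 under these alternatives.

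Without TMM scaling the median over the 34 genes was -0.49 while that of all genes moved to -0.12, the log2 fold change of *Bbs7* was -0.058 and that of *Cc2d2a* -0.0138. With length offsets *Ift22* was 0.13, *Bbs7* -0.0108 and *Cc2d2a* -0.0451. On log2(TPM + 1) the median was -0.50, with *Ift22* at 0.0357, *Bbs7* at -0.105, *Cc2d2a* at -0.0206 and *Nphp4* at -0.0739. On log2(TPM + 0.1) the median was -0.52, with *Ift22* at 0.0358, *Bbs7* at -0.106, *Cc2d2a* at -0.0751 and *Nphp4* at -0.0799. Leaving out 1 library at a time, the median ran from -0.45 to -0.34, lowest without *Arid1a* WT replicate 3 and highest without *Arid1a* WT replicate 4. *Cc2d2a* ran from -0.23 to 0.37, below 0 without *Arid1a* WT replicate 2 (-0.23) or *Arid1a* cKO replicates 2 (-0.01) or 3 (-0.22). The difference in log2 ratio of *Tmem67* to *Tmem231* was 0.13 with CPM, and it was 0.000743 without *Arid1a* WT replicate 3, the upper end of a leave-one-out range that began at -0.0722.

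Same-numbered libraries come from different animals, and their deviations correlated at 0.16, 0.01, 0.09 and -0.14 (Pearson's r across genes, which are not independent), so the number does not pair them. With it as a block, edgeR kept all 31 calls, and 0 of 12 pairs differed by sign flips, whose smallest p is 0.125.

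Counting error limits *Cc2d2a* most, and a difference there could not be seen at this depth. Intervals and p-values cover these libraries only.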
